A study of Homo sapiens with 6 samples.

Results

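VEGF ligands, receptors and neuropilins were examined in A673/TR/shEF cells, a derivative of the Ewing sarcoma cell line A673. The 10 genes were taken by name from the 26364 gene symbols measured: 5 ligands (VEGFA, VEGFB, VEGFC, FIGF, which is the older symbol of VEGFD, and PGF), 3 receptor tyrosine kinases (FLT1, KDR and FLT4) and 2 neuropilins (NRP1 and NRP2). All 10 symbols were found. They were chosen with earlier results of these data known.

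All cells carried the EWSR1::FLI1 fusion, a constitutive tetracycline repressor and a doxycycline-inducible shRNA directed against the fusion transcript. RNAseq was performed on 3 samples left untreated (EWSR1::FLI1high) and 3 samples in which doxycycline (1 µg/mL for 72 h) had induced the shRNA (EWSR1::FLI1low). The deposited design calls the 3 samples of a condition independent clones, whereas the sample titles number them as experiments. It is therefore not known whether replicates were separate clones or repeated cultures, and the p-values measure only the spread between these samples. Doxycycline-treated cells without the shRNA were not analysed here, so the effect of the drug itself and that of the knockdown cannot be told apart.

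Secreted VEGF ligands act through receptor tyrosine kinases best known from the endothelium. VEGFA binds both FLT1 and KDR, VEGFB and PGF bind FLT1, and VEGFC and VEGFD bind FLT4 and, after proteolytic processing, KDR. Neuropilins are co-receptors that bind VEGF ligands as well as class 3 semaphorins, and tumour cells can express ligands and receptors of the family alike.

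Values are given as FPKM, a read density corrected for gene length and library depth, which the authors deposited after scaling between libraries. FLI1, which supplies the 3′ part of the targeted transcript, reached 11.3, 12.7 and 14.2 FPKM in the 3 EWSR1::FLI1high libraries but only 2.91, 4.29 and 3.68 FPKM in the 3 EWSR1::FLI1low libraries. It fell without overlap of the groups, by 1.57 on the log2(FPKM + 1) scale (SE 0.18, limma adjusted p = 0.000676). Reads on genes, recovered from the FPKM values, ranged from 6980361 to 16658933 per library. Of 10 markers of Ewing sarcoma cells, chosen with earlier results of these data known, 7 fell and 0 rose with an adjusted p under 0.01 (limma). Over all genes tested, 3.37% fell and 4.51% rose at that threshold. CD99, PAPPA and GLI1 did not pass it. By limma-voom on the recovered reads 8 markers fell and 0 rose, against 6.19% and 7.35% of all genes. The summed level of the 10 markers went from between 997 and 1039 FPKM to between 287 and 323 FPKM. EWSR1::FLI1low libraries differed more among themselves than EWSR1::FLI1high libraries did, with a chi-square per degree of freedom of 20.2 to 31.5 against 4.25 to 6.27 for pairs of replicates.

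Genes were tested if their mean over all 6 libraries was at least 0.5 FPKM, a filter that 9 members passed. KDR (means of 0.347 FPKM in EWSR1::FLI1high and 6.81 in EWSR1::FLI1low) and VEGFC (0.433 and 8.21) passed it only through EWSR1::FLI1low values. FLT4 (0.795 and 0.388) passed it only through EWSR1::FLI1high values. Counts of members called are therefore a description. Of these 9 members, 3 rose upon EWSR1::FLI1 knockdown (PGF, FLT1 and KDR) and 0 fell, at an adjusted p under 0.01 over all 15504 genes tested with limma. Over all genes tested, 4.51% rose and 3.37% fell at the same threshold. With limma-voom on recovered reads 4 members rose and 0 fell, against 7.35% and 6.19% of all genes. At an unadjusted p under 0.05, 6 members were higher and 0 lower by limma, as were 15.6% and 18.7% of all genes, and 6 were higher and 1 lower by limma-voom, as were 19.8% and 19.4% of all genes. Without EWSR1::FLI1low replicate 1, limma called 6 members higher and 0 lower, against 10.2% and 5.41% of all genes. With no filter on low values, limma called 0 members in either direction, against 0.338% and 0.133% of all 26364 symbols (adjusted p of 0.0128 for KDR, 0.0351 for FLT1 and 0.0532 for PGF). Groups did not overlap for 6 members that were higher in all EWSR1::FLI1low libraries (VEGFC, PGF, FLT1, KDR, NRP1 and NRP2), a pattern seen in 17.5% of all genes tested, and for 1 that was lower in all of them (FLT4), as were 23.6% of all genes. Fold changes are on the log2(FPKM + 1) scale, where those of weakly expressed genes come out too small. In bulk RNA a change in the share of cells that express a gene and a change in the level per cell cannot be told apart.

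**Figure D1:**
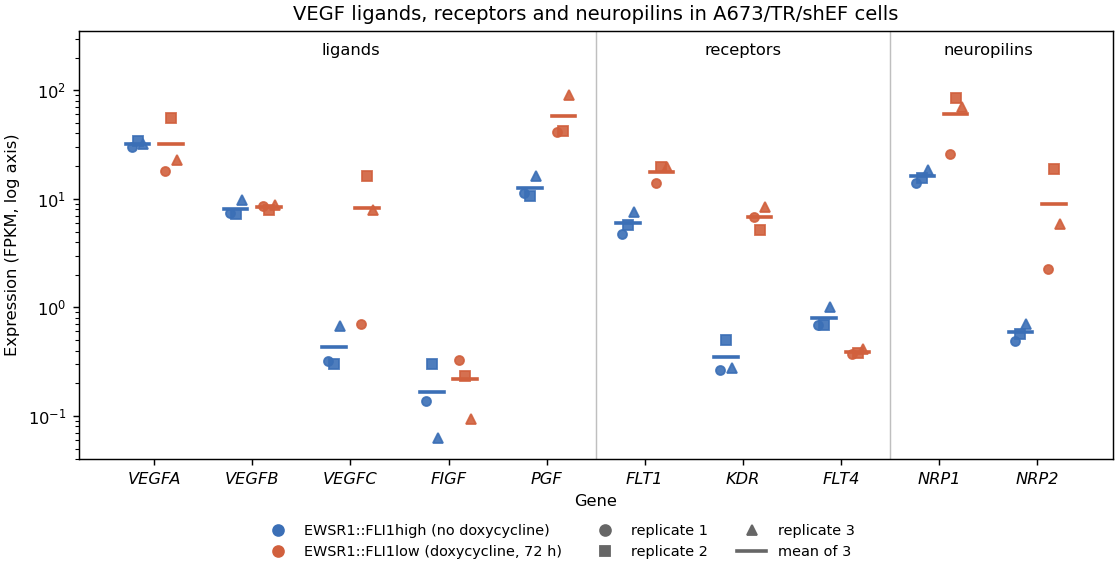
Expression of the 10 genes in each library, in FPKM on a log axis, with EWSR1::FLI1high libraries in blue, EWSR1::FLI1low libraries in red, marker shapes for replicates and bars for the mean of 3. KDR goes from at most 0.497 to at least 5.20 FPKM, whereas VEGFA values of the groups overlap and EWSR1::FLI1low replicates of VEGFC and NRP2 lie far apart.

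Gene positions are those of GRCh37, from GENCODE v44 lifted to that build. KDR is on the minus strand of chromosome 4 (chr4:55944648-55991762), as is VEGFC (chr4:177604689-177714076), FLT1 on the minus strand of chromosome 13 (chr13:28874483-29069282) and PGF on the minus strand of chromosome 14 (chr14:75408537-75422329). VEGFA (chr6:43737921-43754224, plus strand), NRP1 (chr10:33466420-33625190, minus strand) and NRP2 (chr2:206546714-206662857, plus strand) share 188, 561 and 147 exonic bases with a long non-coding RNA on the opposite strand. Whether reads were counted by strand is not given in the sources used here, so reads of the gene and of its partner cannot be told apart in these bases. VEGFB lies on chromosome 11 (chr11:64002056-64006736, plus strand), FIGF on chromosome X (chrX:15363718-15402535, minus strand) and FLT4 on chromosome 5 (chr5:180028506-180076624, minus strand).

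EWSR1::FLI1 binds DNA through the ETS domain of FLI1, which recognises GGAA cores, and is known to act on repeats of this core. To show the sequence at the starts of the 3 genes that rose, the 250 bases before the transcription start are given for each from the RefSeq promoter table, 5′ to 3′ on the strand of the gene, with GGAA or its reverse complement TTCC in capitals. That table is on GRCh38.p14, another build than the coordinates above. All 3 windows are on the minus strand: KDR at chr4:55125596-55125845, FLT1 at chr13:28495129-28495378 and the first listed of 2 starts of PGF at chr14:74955765-74956014.
KDR: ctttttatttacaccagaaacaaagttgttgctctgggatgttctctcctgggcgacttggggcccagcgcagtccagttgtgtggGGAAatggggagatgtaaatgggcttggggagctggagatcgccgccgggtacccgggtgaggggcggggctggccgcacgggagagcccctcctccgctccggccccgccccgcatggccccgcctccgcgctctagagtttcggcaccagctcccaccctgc
FLT1: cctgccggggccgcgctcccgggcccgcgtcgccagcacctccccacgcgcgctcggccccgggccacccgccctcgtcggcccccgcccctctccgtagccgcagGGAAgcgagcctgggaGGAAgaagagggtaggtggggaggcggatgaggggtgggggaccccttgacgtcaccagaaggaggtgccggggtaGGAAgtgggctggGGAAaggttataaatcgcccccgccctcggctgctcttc
PGF: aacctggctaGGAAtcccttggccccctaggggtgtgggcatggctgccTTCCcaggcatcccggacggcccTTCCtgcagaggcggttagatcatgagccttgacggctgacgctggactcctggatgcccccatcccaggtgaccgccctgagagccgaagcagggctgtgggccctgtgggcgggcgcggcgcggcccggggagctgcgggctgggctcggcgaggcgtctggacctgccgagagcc
These windows hold 1, 4 and 3 matches of GGAA on either strand, against a median of 3 over 35116 human promoter windows of the same length, of which 92.7% hold at least 1. A direct repeat of the core (GGAAGGAA, which contains GGAA) was found in none of the 7 members with an entry (VEGFB, VEGFC, FIGF, PGF, FLT1, KDR and NRP2) and in 3.06% of all windows. The AP-1 motif TGANTCA was found in FIGF alone (6.57% of all windows), and the hypoxia-response core ACGTG in none of them (18.5% of all windows). A match describes the letters only and is no measured binding site, and elements farther from the start were not searched.

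VEGFA, the main angiogenic ligand, did not differ detectably between the conditions. Its level was 30.1, 34.4 and 31.7 FPKM in EWSR1::FLI1high replicates 1, 2 and 3, and 17.9, 55.4 and 22.6 FPKM in EWSR1::FLI1low replicates 1, 2 and 3. EWSR1::FLI1high libraries were close together, while EWSR1::FLI1low replicate 2 lay above all of them and replicates 1 and 3 below all of them. The means were 32.1 ± 2.14 and 32.0 ± 20.4 FPKM (SD, n = 3 each), and the log2 fold change was -0.17 (95% interval -0.996 to 0.649, adjusted p = 0.782, limma), which leaves room for a fall to the lower limit or a rise to the upper one. The estimate was -0.65 without EWSR1::FLI1low replicate 2 (adjusted p = 0.0969, limma) and turned to 0.14 without EWSR1::FLI1low replicate 1 (adjusted p = 0.769).

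VEGFB, a ligand of FLT1, was at 7.34, 7.30 and 9.66 FPKM in EWSR1::FLI1high replicates 1, 2 and 3 and 8.66, 7.90 and 8.75 FPKM in EWSR1::FLI1low replicates 1, 2 and 3. All EWSR1::FLI1low values lay within the range of the EWSR1::FLI1high values, and the log2 fold change was 0.06 (95% interval -0.33 to 0.46, adjusted p = 0.844, limma). FIGF (VEGFD), a ligand of FLT4, gave between 1 and 6 reads per library, or 0.0622 to 0.325 FPKM, and did not pass the filter. At this depth 3 reads, taken as the limit of detection, correspond to 0.0928 to 0.187 FPKM of FIGF, so a difference between the conditions was not detectable. These limits cover counting error only.

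VEGFC, which drives the growth of lymphatic vessels, was uneven among treated samples. Reads on VEGFC numbered 7, 5 and 11 in EWSR1::FLI1high replicates 1, 2 and 3, and 13, 276 and 255 in EWSR1::FLI1low replicates 1, 2 and 3. EWSR1::FLI1low replicate 1 was only 1.03 times the highest EWSR1::FLI1high library in FPKM, whereas replicates 2 and 3 were at 37.2 and 18.1 times the EWSR1::FLI1high mean. The log2 fold change did not pass the threshold with all libraries (2.16, adjusted p = 0.0563, limma) and did so without EWSR1::FLI1low replicate 1 (3.11, adjusted p = 0.00021, limma).

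The ligand PGF (placental growth factor) signals through FLT1 and binds neuropilins. PGF expression was 11.2, 10.6 and 16.1 FPKM in EWSR1::FLI1high replicates 1, 2 and 3, and 41.7, 41.8 and 90.2 FPKM in EWSR1::FLI1low replicates 1, 2 and 3. EWSR1::FLI1low replicate 3 stood above the other two, which were nearly equal and still 2.59 times the highest EWSR1::FLI1high library. The log2 fold change was 2.03 (95% interval 1.32 to 2.75, adjusted p = 0.0030, limma), and the ratio of means was 4.58. Leaving out any one EWSR1::FLI1high library took the call away (adjusted p of 0.0126, 0.0202 and 0.0102 without replicates 1, 2 and 3, limma), while leaving out any EWSR1::FLI1low library did not.

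Since FPKM is a value per length, members can be set beside each other within a library. The length of a gene was the same in all libraries, whatever isoforms were expressed. Shares, ratios and orders of members therefore also depend on the lengths used and on isoforms, which were not analysed. Summed ligand expression was 49.2 to 58.2 FPKM in EWSR1::FLI1high and 69.2 to 129 FPKM in EWSR1::FLI1low libraries. VEGFA made up 61.3, 65.0 and 54.5% of the sum in EWSR1::FLI1high replicates 1, 2 and 3 and 25.8, 45.6 and 17.5% in EWSR1::FLI1low replicates 1, 2 and 3, while PGF made up 22.8, 20.1 and 27.6% and then 60.2, 34.4 and 69.7%. VEGFA was thus the leading ligand in all 3 EWSR1::FLI1high libraries and in EWSR1::FLI1low replicate 2, and PGF in EWSR1::FLI1low replicates 1 and 3. The difference in the VEGFA share was -30.6 percentage points, and between -38.6 and -24.5 with 1 library left out. Groups did not overlap for either share (exact permutation p = 0.1 each, two-sided, the smallest possible). Both shares are parts of the same sum, so a rise of PGF alone lowers the share of VEGFA.

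**Figure D2:**
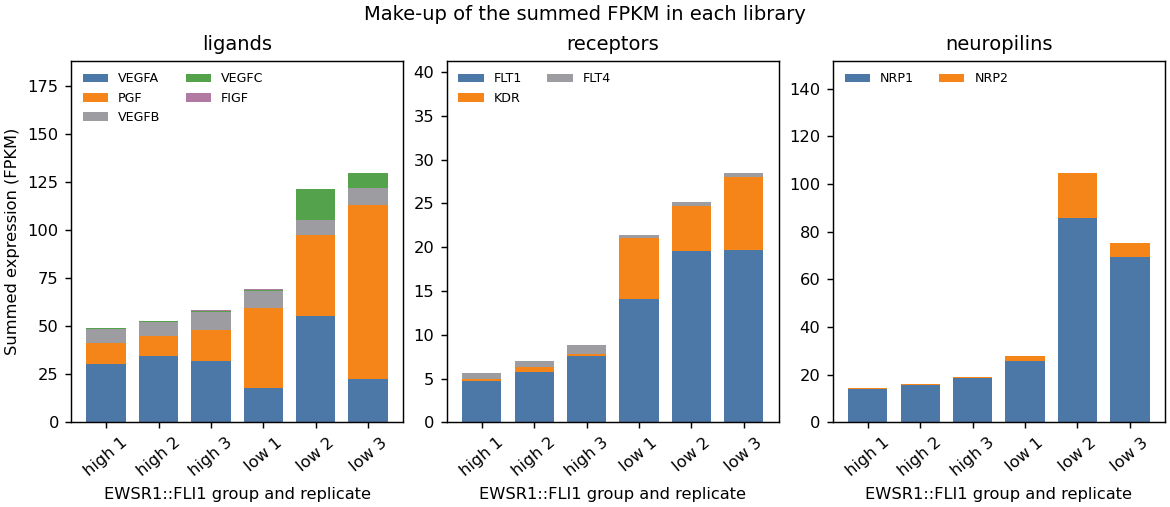
Summed FPKM of ligands, receptors and neuropilins in each library (linear axes from 0), stacked by gene, for EWSR1::FLI1high (high) and EWSR1::FLI1low (low) replicates 1 to 3. The ligand bars change from mostly VEGFA to mostly PGF in EWSR1::FLI1low replicates 1 and 3, and KDR appears as a visible part of the receptor bars only in the EWSR1::FLI1low libraries.

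The receptor KDR (VEGFR2) carries most of the mitogenic and migratory response of endothelial cells to VEGFA. KDR expression was 0.268, 0.497 and 0.277 FPKM (17, 24 and 13 reads) in EWSR1::FLI1high replicates 1, 2 and 3 and 6.85, 5.20 and 8.37 FPKM (369, 258 and 790 reads) in EWSR1::FLI1low replicates 1, 2 and 3. All EWSR1::FLI1high values thus rested on few reads, and the lowest EWSR1::FLI1low library was 10.4 times as high as the highest EWSR1::FLI1high library. The mean rose from 0.347 ± 0.130 to 6.81 ± 1.59 FPKM (SD, n = 3 each), a ratio of 19.6. The log2 fold change was 2.52 (95% interval 2.08 to 2.95, adjusted p = 0.000108, limma), and 140 of the 15504 genes tested had a larger one. Tested on reads, without the pseudocount of 1 FPKM, limma-voom gave a 21.3-fold increase (95% interval 11.6 to 38.9, adjusted p = 0.00014). On the log2(FPKM + 1) scale KDR was the single member past a log2 fold change of 2.5, a limit that 0.813% of all genes passed upward and 0.206% downward together with an adjusted p under 0.01. On other scales VEGFC and NRP2 passed this fold too, with log2 fold changes of 3.62 and 3.52 by limma-voom (adjusted p = 0.110 and 0.0191) and of 3.21 and 3.24 by limma with a pseudocount of 0.1 FPKM (adjusted p = 0.0393 and 0.00744). The call of KDR at an adjusted p under 0.01 was kept whichever of the 6 libraries was left out.

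FLT1 (VEGFR1) binds VEGFA, VEGFB and PGF and also gives rise to a soluble form that sequesters ligand, which values per gene do not separate from the membrane receptor. FLT1 expression was 4.74, 5.77 and 7.54 FPKM in EWSR1::FLI1high replicates 1, 2 and 3, and 14.1, 19.5 and 19.7 FPKM in EWSR1::FLI1low replicates 1, 2 and 3. The receptor was therefore present in both conditions, and each EWSR1::FLI1low library exceeded each EWSR1::FLI1high library. The log2 fold change was 1.43 (95% interval 0.94 to 1.91, adjusted p = 0.00261, limma), with a ratio of means of 2.96. This call was lost without EWSR1::FLI1high replicate 1 (adjusted p = 0.0158, limma), EWSR1::FLI1high replicate 2 (0.0187) or EWSR1::FLI1low replicate 3 (0.0114), while the log2 fold change stayed between 1.29 and 1.58.

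FLT4 (VEGFR3), the receptor of VEGFC and VEGFD on lymphatic endothelium, was the single member whose EWSR1::FLI1low libraries all lay below the EWSR1::FLI1high ones. It was at 0.686, 0.687 and 1.01 FPKM (46, 35 and 50 reads) in EWSR1::FLI1high replicates 1, 2 and 3, against 0.370, 0.382 and 0.412 FPKM (21, 20 and 41 reads) in EWSR1::FLI1low replicates 1, 2 and 3. These levels were low throughout, and the difference did not pass the threshold (log2 fold change -0.37, 95% interval -0.73 to 0.00, adjusted p = 0.148, limma). On recovered reads the log2 fold change was -0.92 with an adjusted p of 0.0437 (limma-voom).

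The summed level of the receptors was 5.69, 6.95 and 8.82 FPKM in EWSR1::FLI1high replicates 1, 2 and 3 and 21.4, 25.1 and 28.4 FPKM in EWSR1::FLI1low replicates 1, 2 and 3. KDR made up 4.70, 7.15 and 3.14% of that sum without doxycycline, and 32.1, 20.7 and 29.4% of it with doxycycline. FLT1 remained the most abundant receptor in every library, yet its share went from 83.9 ± 1.34% to 71.0 ± 6.03% (SD, n = 3 each), and that of FLT4 from 11.1 ± 1.12% to 1.57 ± 0.147%. These 3 shares are parts of the same sum and do not change separately. FLT1 rose in FPKM while its share fell, and FLT4 went from a mean of 0.795 to 0.388 FPKM without being called. For each of the 3 shares the groups did not overlap. An exact permutation test of 3 against 3 libraries (two-sided) gave p = 0.1, the smallest value it allows, and 0.1125 after adjustment over the 18 sums, shares and ratios compared.

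**Figure D3:**
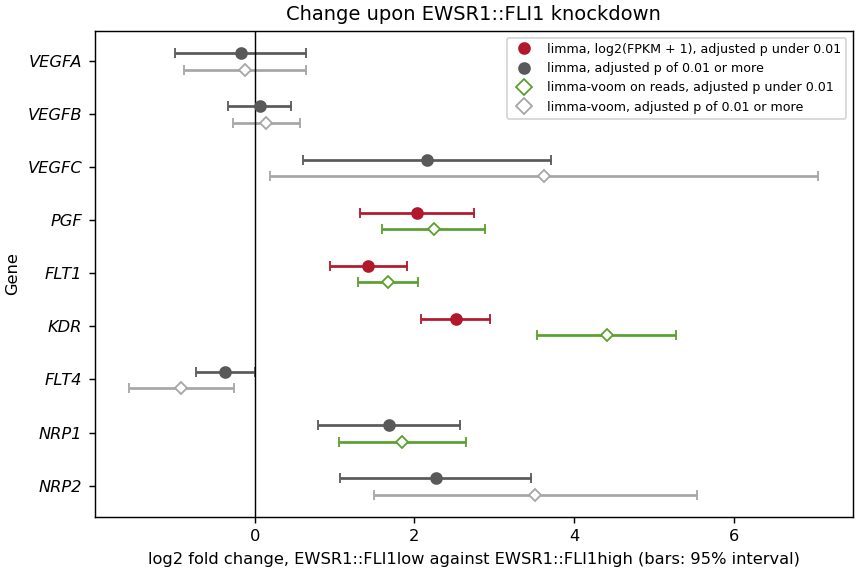
Log2 fold change of the 9 tested members, EWSR1::FLI1low against EWSR1::FLI1high, with 95% intervals, by limma on log2(FPKM + 1) (circles) and limma-voom on recovered reads (diamonds). KDR, FLT1 and PGF pass an adjusted p of 0.01 with both, NRP1 with limma-voom only, and the estimate for KDR goes from 2.52 to 4.41 between them.

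NRP1, the co-receptor of VEGFA and KDR and a receptor of SEMA3A, was expressed in both conditions. It was at 14.1, 15.7 and 18.5 FPKM in EWSR1::FLI1high replicates 1, 2 and 3, against 25.7, 85.6 and 69.5 FPKM in EWSR1::FLI1low replicates 1, 2 and 3. NRP2, the co-receptor of VEGFC and FLT4 and a receptor of SEMA3F, was at 0.494, 0.569 and 0.702 FPKM (40, 35 and 42 reads) and at 2.27, 18.9 and 5.87 FPKM (156, 1199 and 706 reads) in the same order. Both neuropilins were higher in all EWSR1::FLI1low libraries, with replicate 1 lowest and replicate 2 highest among these.

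Neither neuropilin passed an adjusted p of 0.01 with all libraries. NRP1 had a log2 fold change of 1.68 (95% interval 0.79 to 2.58, adjusted p = 0.0188, limma) and NRP2 one of 2.27 (95% interval 1.07 to 3.47, adjusted p = 0.0186, limma). Both did without EWSR1::FLI1low replicate 1 (NRP1 2.20, adjusted p = 9.15e-05; NRP2 2.88, adjusted p = 0.0013, limma), and with all libraries 5 members were higher and 0 lower at an adjusted p under 0.05, as were 9.87% and 9.91% of all genes. NRP1 passed with limma-voom (adjusted p = 0.00535), and NRP2 did not (0.0191).

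The ratio of NRP2 to NRP1 was nearly constant among EWSR1::FLI1high libraries, at 0.0351, 0.0362 and 0.0379, and was 0.0884, 0.221 and 0.0845 in EWSR1::FLI1low replicates 1, 2 and 3. NRP1 therefore stayed the more abundant neuropilin in every library, and its summed level with NRP2 went from between 14.6 and 19.2 FPKM to between 28.0 and 105 FPKM. The log2 ratio of NRP2 to NRP1 was 1.70 higher in EWSR1::FLI1low cells and 1.25 to 1.94 higher with 1 library left out (exact permutation p = 0.1 with all libraries, two-sided, the smallest possible). With 1 FPKM added to both genes the difference was 0.586, since NRP2 was below 1 FPKM without doxycycline.

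**Figure D4:**
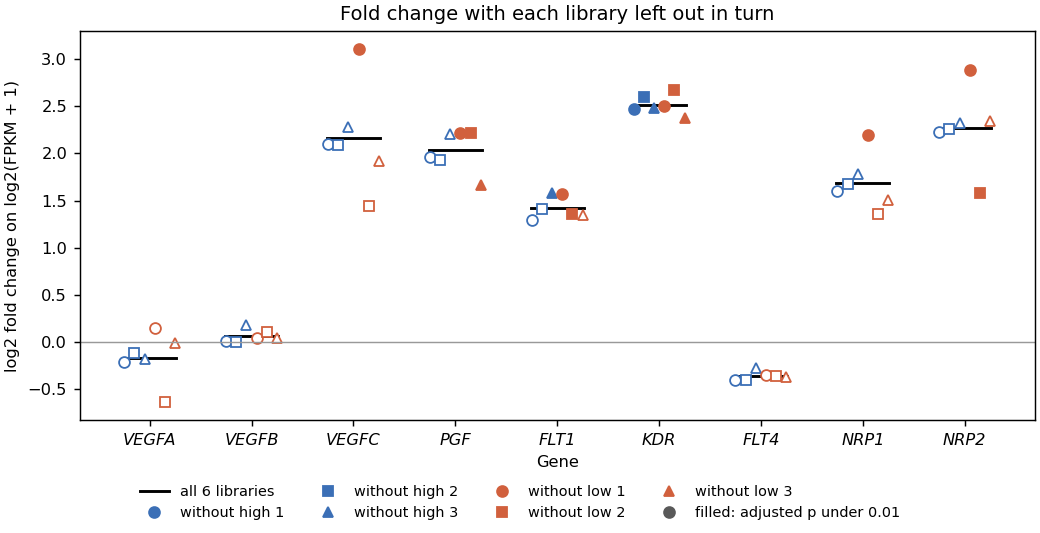
Log2 fold change on log2(FPKM + 1) with all 6 libraries (black bars) and with each library left out in turn (symbols, filled where the adjusted p is under 0.01). KDR is filled in 6 of 6 fits, while VEGFC, NRP1 and NRP2 change most without EWSR1::FLI1low replicate 1 or 2.

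In the order of levels, VEGFA led in EWSR1::FLI1high cells, followed by NRP1, PGF, VEGFB, FLT1, FLT4, NRP2, VEGFC, KDR and FIGF. Among neighbours in this order the libraries were separate only for VEGFA and NRP1, PGF and VEGFB, and FLT1 and FLT4. In EWSR1::FLI1low cells the order was NRP1, PGF, VEGFA, FLT1, NRP2, VEGFB, VEGFC, KDR, FLT4 and FIGF, and all neighbours overlapped down to KDR, which was separate from FLT4, as FLT4 was from FIGF. KDR and FLT4 thus exchanged places: FLT4 was above KDR in all EWSR1::FLI1high libraries and below it in all EWSR1::FLI1low libraries. Of the EWSR1::FLI1low libraries, replicate 1 was the lowest for 7 of the 10 members, as it was for 57.0% of all genes tested.

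Genes whose pattern over the 6 libraries was most like that of a member, by Pearson r of log2(FPKM + 1) among 12577 genes with a mean of at least 1 FPKM, are given as a description. For KDR these were NOD1 (r = 0.999), PCSK1 (0.999) and LOC100288911 (0.999), for FLT1 they were THEM4 (1.00), SRPX2 (0.998) and LAMB1 (0.998), and for PGF they were WDR63 (0.994), CHMP2A (0.994) and GM2A (0.993). PCSK1, a prohormone convertase, went from between 0.320 and 0.455 FPKM to between 4.63 and 7.72 FPKM. For VEGFC they were HYOU1 (1.00), IFNGR2 (0.999) and RPS6KA3 (0.999), which like it were close to the EWSR1::FLI1high level in EWSR1::FLI1low replicate 1 and above it in the other two. With 6 points and a shared difference between groups, high values are common: 432, 532, 293 and 536 genes had an r over 0.95 with KDR, FLT1, PGF and VEGFC.

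Lists of genes around the family were then read from the same fit, beside a median log2 fold change of -0.05 over all genes tested and the shares of all genes called, which were 4.51% higher and 3.37% lower by limma and 7.35% and 6.19% by limma-voom. At an unadjusted p under 0.05 these shares were 15.6% and 18.7% by limma and 19.8% and 19.4% by limma-voom. Counts of genes that rose or fell are by limma where no tool is named. The lists were chosen with earlier results of these data known, so their counts are a description. Some of their genes, among them EPAS1 and ADAMTS2, passed the filter only through their EWSR1::FLI1low values. Of 9 tested class 3 semaphorins and plexins, the other ligands and signalling partners of neuropilins, 2 rose and 0 fell (median 0.43). SEMA3A rose from 37.6 ± 0.728 to 113 ± 9.89 FPKM (log2 fold change 1.55, adjusted p = 0.000469, limma) and SEMA3C from 12.8 ± 3.22 to 60.0 ± 24.9 FPKM (2.08, adjusted p = 0.00398). By limma-voom 4 rose and 0 fell, and at an unadjusted p under 0.05, 5 were higher and 1 lower by limma and 6 and 1 by limma-voom. In FPKM, SEMA3A was above every VEGF ligand in each of the 6 libraries.

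Of 7 tested genes that process VEGFC and VEGFD, 1 rose and 0 fell (median 0.52): ADAMTS2, a procollagen protease, went from 0.168 ± 0.00843 to 1.28 ± 0.359 FPKM (log2 fold change 0.95, adjusted p = 0.00654, limma). With limma-voom 2 of these rose and 0 fell, and at an unadjusted p under 0.05, 3 were higher and 0 lower by limma and 5 and 0 by limma-voom. Of 16 co-receptors and regulators, 5 rose and 0 fell (median 0.77), and CD44, a hyaluronan receptor that the study singled out on these samples and that is therefore no independent choice, ITGAV, DAB2 and SDC2 had the largest log2 fold changes of these. ITGAV, the integrin αv subunit, rose from 28.4 ± 1.37 to 124 ± 38.7 FPKM (2.04, adjusted p = 0.000719, limma), and DAB2, an endocytic adaptor of KDR and FLT4, from 8.36 ± 2.20 to 30.3 ± 2.74 FPKM (1.76, adjusted p = 0.000785). Of these co-receptors and regulators 7 rose and 0 fell by limma-voom, and at an unadjusted p under 0.05, 9 were higher and 0 lower by limma and 10 and 0 by limma-voom.

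Of 40 signalling proteins downstream of the receptors, 4 rose and 1 fell (median 0.10), and 5 rose and 4 fell by limma-voom. At an unadjusted p under 0.05, 7 were higher and 6 lower by limma, and 13 were higher and 7 lower by limma-voom. PTGS2 (cyclooxygenase 2) went from 4.58 ± 0.772 to 81.5 ± 71.8 FPKM (log2 fold change 3.56, adjusted p = 0.00154, limma) and RCAN1, a calcineurin inhibitor induced by VEGFA in endothelium, from 8.88 ± 1.27 to 58.9 ± 45.0 FPKM (2.33, adjusted p = 0.00923). PRKCB, a protein kinase C that is also in the list of Ewing sarcoma markers, fell from 74.6 ± 7.14 to 9.14 ± 3.94 FPKM, and PRKCA rose from 1.76 ± 0.505 to 8.57 ± 3.48 FPKM (1.73, adjusted p = 0.00416).

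Among 10 tested genes of oxygen sensing, which controls VEGFA transcription, 1 rose and 1 fell (median 0.01), and 1 rose and 1 fell by limma-voom. At an unadjusted p under 0.05, 1 was higher and 1 lower by limma, and 3 were higher and 1 lower by limma-voom. EPAS1 (HIF-2α) was at 0.240, 0.267 and 0.275 FPKM in EWSR1::FLI1high replicates 1, 2 and 3, against 7.79, 10.7 and 6.56 FPKM in EWSR1::FLI1low replicates 1, 2 and 3 (log2 fold change 2.87, adjusted p = 6.09e-05, limma). The lowest EWSR1::FLI1low library was 23.9 times as high as the highest EWSR1::FLI1high library. CITED2, which competes with HIF factors for their coactivators, fell from 77.5 ± 5.98 to 32.6 ± 2.23 FPKM (log2 fold change -1.22, adjusted p = 0.00176). Of 11 hypoxia-response genes 2 rose and 0 fell (median 0.56), namely ADM (adrenomedullin, a vasoactive peptide), from 1.50 ± 0.505 to 33.9 ± 7.07 FPKM, and NDRG1, from 1.28 ± 0.449 to 13.0 ± 7.93 FPKM. By limma-voom 4 hypoxia-response genes rose and 0 fell, and at an unadjusted p under 0.05, 5 were higher and 0 lower by limma and 8 and 0 by limma-voom.

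In the related PDGF family, 3 of 6 genes rose and 0 fell (median 1.19). PDGFRA, a receptor tyrosine kinase whose gene lies in the same cluster on chromosome 4 as KDR, went from 0.831 ± 0.208 to 16.6 ± 7.03 FPKM (log2 fold change 3.18, adjusted p = 0.000242, limma). PDGFA went from 6.10 ± 0.220 to 22.1 ± 10.3 FPKM and PDGFRB from 10.7 ± 2.71 to 28.0 ± 7.43 FPKM. In this family 3 rose and 0 fell by limma-voom too, and at an unadjusted p under 0.05, 4 were higher and 1 lower by limma and 5 and 1 by limma-voom. In the list of angiopoietins and TIE receptors 3 genes were tested (ANGPT1, ANGPT2 and ANGPTL4), and no TIE receptor passed the filter. Of the 3, 1 rose (ANGPT1, from 4.22 ± 0.856 to 16.0 ± 4.80 FPKM) and 0 fell (median 0.60). TEK, the receptor of ANGPT1, was between 0.108 and 0.300 FPKM in every library. With limma-voom 1 of these 3 rose and 0 fell, and by either tool 2 were higher and 0 lower at an unadjusted p under 0.05.

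**Figure D5:**
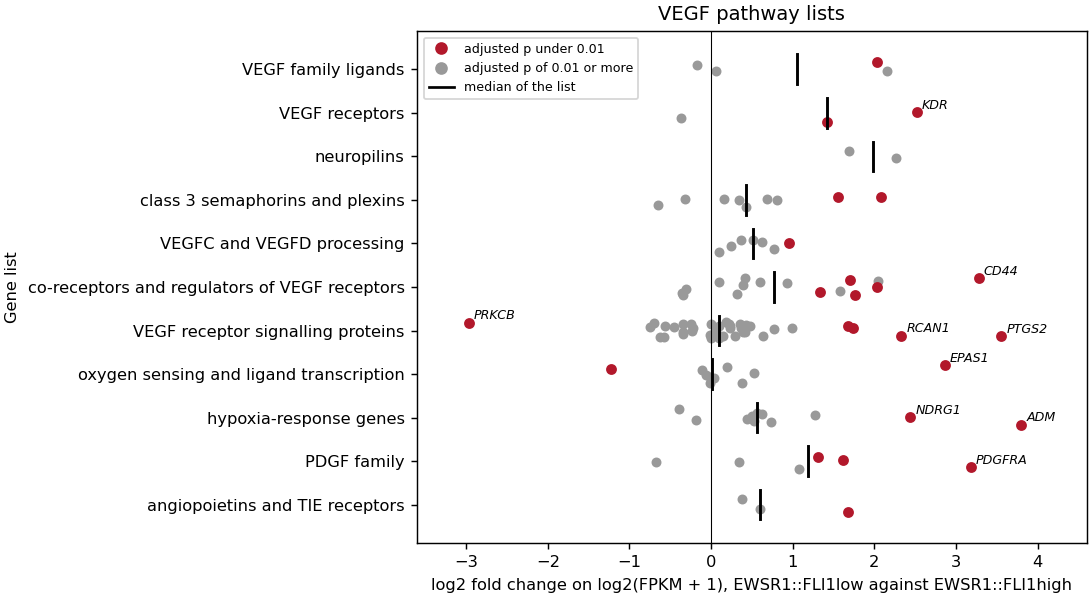
Log2 fold change on log2(FPKM + 1) of each tested gene in the lists around the VEGF family, EWSR1::FLI1low against EWSR1::FLI1high, with genes of an adjusted p under 0.01 in red and the median of each list as a bar. Signalling proteins and oxygen sensing centre near 0 (medians 0.10 and 0.01), and names mark the red points farthest from 0, from RCAN1 at 2.33 to ADM at 3.80 on the right and PRKCB at -2.96 on the left.

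FLT1 and KDR are themselves used as markers of endothelial cells, so other markers of that lineage were read beside them. Of 16 endothelial markers 6 passed the filter, and 0 rose or fell by limma (2 higher and 0 lower at an unadjusted p under 0.05, and 4 and 0 by limma-voom, of which 1 passed the adjusted threshold). Their summed level was 49.0 to 54.9 FPKM in EWSR1::FLI1high and 70.5 to 150 FPKM in EWSR1::FLI1low libraries, most of it from EMCN (43.5 ± 3.86 and 106 ± 42.2 FPKM, adjusted p = 0.0257, limma). Of the 16 markers, 6 were higher in all EWSR1::FLI1low libraries than in any EWSR1::FLI1high one (PECAM1, CLDN5, EMCN, ROBO4, TIE1 and CD34). In the other direction 0 were lower in all of them, and 10 overlapped. Of all genes tested, 17.5% were higher and 23.6% lower without overlap. CLDN5, ROBO4 and TIE1 did not pass the filter, so these shares do not cover genes as weak as they are. Levels stayed under 1 FPKM in every library for 12 of the 16, all but EMCN, PECAM1, CD34 and EGFL7, and no marker was at 0 in any library. PECAM1, which joins endothelial cells to each other, was at 0.331 ± 0.0465 and 1.12 ± 0.379 FPKM (adjusted p = 0.0333, limma), and CD34 went from between 0.203 and 0.551 FPKM to between 0.680 and 1.34 FPKM (adjusted p = 0.147, limma). PECAM1, CD34, ERG and PLVAP passed the filter only through their EWSR1::FLI1low values. EGFL7, a secreted endothelial protein, was at 4.99 ± 0.676 and 3.22 ± 1.72 FPKM, with groups that overlapped (log2 fold change -0.57, adjusted p = 0.167, limma). Among the markers that define the lineage, CDH5 (VE-cadherin) was at 0.195 ± 0.0154 and 0.358 ± 0.175 FPKM and VWF (von Willebrand factor) at 0.160 ± 0.0630 and 0.225 ± 0.155 FPKM. Of 3 lymphatic markers 2 were tested and of 6 blood cell markers 1, with 0 called by limma or limma-voom. At an unadjusted p under 0.05, 1 lymphatic marker was higher and 0 blood cell markers differed by either tool, and their sums were at most 6.26 and 2.90 FPKM. The part of such cells in the levels of FLT1 and KDR was not tested.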

How the data were processed

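RNAseq libraries of 6 samples (3 EWSR1::FLI1high, 3 EWSR1::FLI1low) were prepared with the ScriptSeq v2 kit after rRNA depletion. The authors mapped reads to GRCh37 with STAR (2.5.0b), and Cufflinks (2.2.1), bedtools (2.17.0) and DESeq2 (1.6.3) are named in the submitters' processing notes. For each gene symbol the authors deposited 1 FPKM value per library, with no replicates pooled. They also deposited a table of their own comparison with log2 fold changes and their errors, Wald scores, p-values and a mean signal per gene (normalized counts averaged over all libraries), of which only the mean signal was used. FPKM multiplied by the ratio of that mean signal to the mean FPKM of the gene gave whole multiples of 1 value per library (100% of values above 0, within 0.1 reads), from which reads were recovered.

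Genes with a mean of at least 0.5 FPKM were tested with limma (3.58.1, R 4.3.3; lmFit, eBayes with trend) on log2(FPKM + 1), with Benjamini-Hochberg adjustment over 15504 genes, and called at an adjusted p under 0.01. Intervals cover 95%. Shares, sums and ratios of members were compared with exact permutation tests. Other steps used Python (3.11.15), pandas (2.3.3), scipy (1.17.1) and matplotlib (3.10.9). Samples were grouped by their titles, and each library was counted as 1 replicate, since no pair of replicates differed by as little as sampling noise.

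In simulated libraries of this comparison with 200 of 15504 genes changed, 0% of changes of 1 on the log2 scale were recovered, 70% of changes of 2 (3 unchanged genes called) and 96% of changes of 3.5 (5 called). Fewer genes were changed there than the 1222 called in the data, and each gene had the same spread in both groups. These shares are therefore no measure of the power of the real comparison, where ADAMTS2 was called at a log2 fold change of 0.95.

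The members, the lists and the tests were chosen with earlier results of these data known. Named genes were the 10 members, FLI1, at most the 4 largest changes of a list with an adjusted p under 0.01, the marker genes, and the 3 genes most like each member that rose and VEGFC. Alternatives were a pseudocount of 0.1 FPKM, no filter or a mean of at least 1 FPKM, quantile normalization or median-ratio scaling, a replicate block, eBayes without trend, each library left out, limma-voom on recovered reads, an adjusted p under 0.05 and a log2 fold change past 2.5. Coordinates are from GENCODE v44 lifted to GRCh37 and promoters from RefSeq on GRCh38.p14, where 7 members had an entry. Isoforms, proteins and the authors' own test were not analysed here.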

Additional observations from a re-analysis of the deposited data

How the results depend on the processing

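Of 125 refits of single members, 105 kept the direction and the side of the threshold, 10 newly passed it, 9 no longer did and 1 turned direction (VEGFA, whose log2 fold change lay between -0.65 and 0.14 with 1 library left out, the latter without EWSR1::FLI1low replicate 1). Against 3 members called higher, 4 were called with a pseudocount of 0.1 FPKM, median-ratio scaling, quantile normalization or limma-voom, 5 at an adjusted p under 0.05, 1 (KDR) past a log2 fold change of 2.5 on log2(FPKM + 1), and 0 with limma and no filter on low values, where adjusted p was 0.0128 for KDR, 0.0351 for FLT1 and 0.0532 for PGF; over all genes that setting called 124 in place of 1222, and the cause was not tested. With 1 library left out, 1 to 6 members were called higher: KDR alone without EWSR1::FLI1high replicate 1 or 2, and 6 without EWSR1::FLI1low replicate 1. In every alternative 0 members were called lower. Over all genes, leaving out 1 library gave 475 to 2334 calls and limma-voom 2098, and quantile normalization gave 992 higher and 1000 lower against 700 and 522. Samples with equal numbers deviated from their group means with correlations of 0.27, 0.09 and 0.12. For samples with unequal numbers the correlations were -0.008, -0.24, -0.29, 0.19, -0.05 and -0.09. Whether equal numbers mark paired samples was not settled, and the main fit did not pair them. With the replicate number as a block, 5 members were called higher (NRP1 and NRP2 added) and 1702 genes in all; the other calls of members were the same. The limits of these data are 3 libraries a group, uneven EWSR1::FLI1low libraries and few reads on some members. Reads were few on FIGF and FLT4 in every library and on KDR, VEGFC and NRP2 in EWSR1::FLI1high libraries. On VEGFC they were few in EWSR1::FLI1low replicate 1 too.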
